A study of Mus musculus with 4 samples.

Results

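The genes described here are 9 transcription regulators that mark newborn neurons of the dorsal spinal classes dI3 to dI6: Lbx1, Skor1, Prdm13, Tlx3, Drgx, Phox2a, Wt1, Dmrt3 and Prdm12. They were chosen by name, and each was read from Affymetrix probe sets annotated with that single gene symbol, taking the brightest probe set by its mean over the 4 arrays. Of the 9 genes 7 had such a probe set, out of 18193 genes on the array, and all 7 passed the filter on dim signals that left 12740 genes for testing. Drgx was found through its gene identifier, since the annotation lists it under the synonym Prrxl1. Prdm12 and Prdm13 had no probe set with a single symbol in the annotation used and were not analysed here.

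RNA came from cells of the E10.5 mouse neural tube that had been sorted by GFP, on a mixed B6SJLF1 and ICR strain background, with 2 biological replicates of each of 2 transgenic lines. In Atoh1BAC-GFP embryos a bacterial artificial chromosome carrying Atoh1 drives GFP in the lineage that forms dI1 neurons. In dNeurog1-GFP embryos an enhancer of Neurog1 drives GFP in the dorsal neural tube, in the lineage that forms dI2 neurons. Tissue ran between the limb levels in both lines, both carried a GFP transgene, and neither group is an unlabelled or untreated control. The sort kept GFP-positive and GFP-negative cells, per the labels, and the arrays are read here as the positive ones, which the labels imply without stating it. The number of embryos behind a sample was not given. In sorted pools of this kind, fewer cells of a type and less RNA per cell cannot be told apart.

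Dorsal spinal progenitors lie in stacked domains, and the neurons leaving each domain switch on their own combination of homeodomain and zinc finger regulators. The classes nearest the roof plate, dI1 to dI3, do not express Lbx1, whereas dI4 to dI6 do, and Lbx1 holds them apart from the more dorsal fates. Tlx3 and its partner genes direct the excitatory program of dI3 and dI5, and Ptf1a with its target Prdm13 directs the inhibitory program of dI4. None of the 9 genes is a classical marker of dI1 or dI2, the classes the reporters were made to label. The comparison asks in which of the sorted populations genes of the neighbouring classes had the higher signal.

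The values are MAS5 signals, a linear intensity per probe set. The trimmed means of the deposited signals were 250.001 on the replicate 1 array and 500.003 on the replicate 2 array of each line, so all arrays were brought here to a common trimmed mean of 500 before any comparison. The median signal after rescaling was 138 and 76.0 on the Atoh1-GFP arrays of replicates 1 and 2, and 115 and 75.4 on the dNeurog1-GFP arrays, so dim probe sets remained brighter on the replicate 1 arrays. Each difference is the Atoh1-GFP mean of log2(signal + 32) minus the dNeurog1-GFP mean, and the added 32 shrinks the differences of dim genes. They were tested with limma across all 12740 genes without a block, and also with the replicate number as a block, because the scaling target went with that number. The marker genes went with the labels. Atoh1 read 21412 and 19675 in Atoh1-GFP cells, against 1771 and 1861 in dNeurog1-GFP cells, and Neurog1 had 172 and 176 in Atoh1-GFP cells, against 1388 and 2469 in dNeurog1-GFP cells (limma without the block, adjusted p = 0.0042 and 0.021).

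The 7 measured genes did not move as a group. Skor1, Lbx1 and Drgx were lower in Atoh1-GFP cells, each with more than a 2-fold difference on the log2(signal + 32) scale within both replicate numbers. Dmrt3 lay just under that size within replicate 1, Tlx3 had nearly equal signals in both populations, and Phox2a and Wt1 differed by less than their standard errors without the block. Without the block 0 of the 7 passed limma's adjusted threshold of 0.05, where 0.22% of all genes passed. At an unadjusted p under 0.05 the same fit counted 3 of the 7, against 8.59% of all genes. With the replicate block 3 of the 7 passed, all lower in Atoh1-GFP cells, where 3.73% of all genes passed in that direction and 6.51% in either. The fit with the block has 1 residual degree of freedom. On simulated data it made, on average, a larger share of false calls than its threshold allows. The 3 genes that passed also made up the members at least 2-fold lower within both replicate numbers, a size reached by 1.15% of all genes in that direction. The median difference of the 7 was -1.0 (-0.92 within replicate 1, -1.08 within replicate 2), against a median of 0.01 over all genes tested.

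**Figure D1:**
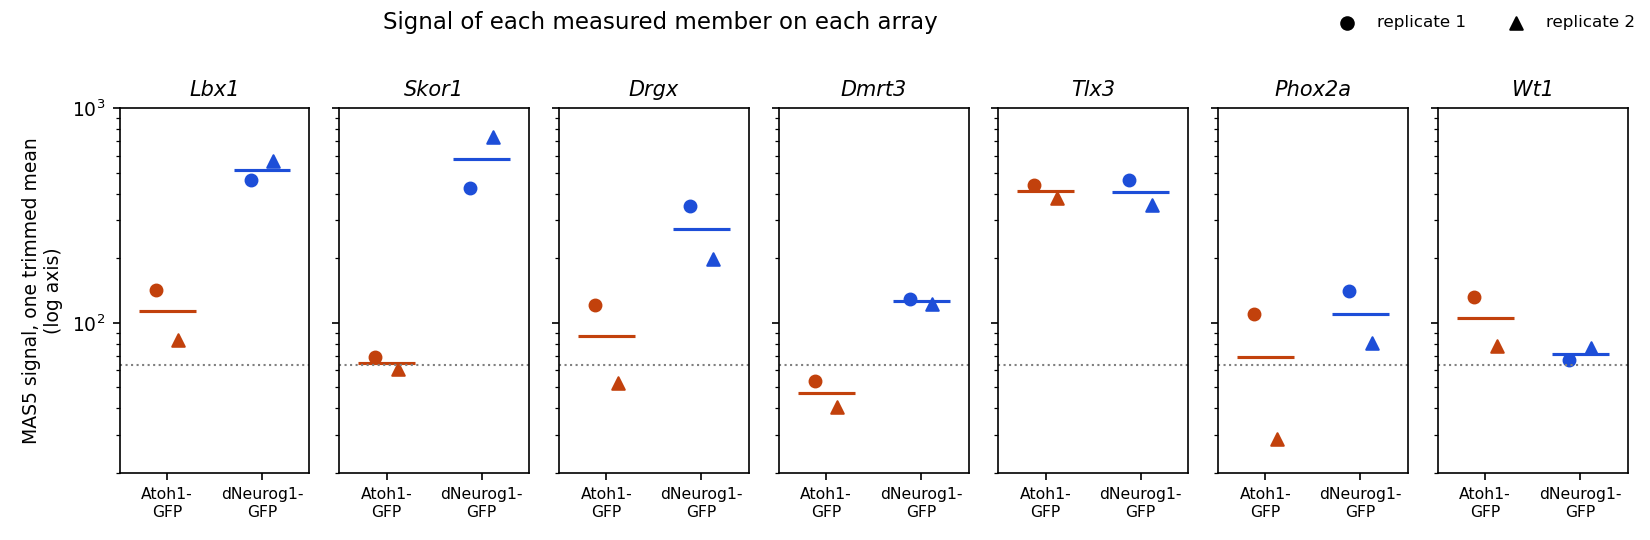
MAS5 signal (log axis, arrays brought to a common trimmed mean) of the 7 measured genes on each array, with Atoh1-GFP in orange and dNeurog1-GFP in blue, circles for replicate 1, triangles for replicate 2 and a bar at the mean of 2 arrays. The dotted line is the filter value of 63.5. Lbx1, Skor1, Drgx and Dmrt3 have both Atoh1-GFP arrays below both dNeurog1-GFP arrays, while Tlx3 lies between 355 and 462 on all 4.

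Because Skor1 had the largest difference of the 7 and Tlx3 the smallest, the 250 bases upstream of their outermost annotated transcription starts are shown first (RefSeq, build GRCm38.p6, read 5′ to 3′ on the minus strand, which is the strand of both genes). The Skor1 window is chr9:63148962-63149211 and the Tlx3 window chr11:33203589-33203838, and no annotated gene overlaps either. Capitals mark the homeodomain core TAAT and the CCAAT box, each on either strand, which were looked for after the windows had been read.
Skor1: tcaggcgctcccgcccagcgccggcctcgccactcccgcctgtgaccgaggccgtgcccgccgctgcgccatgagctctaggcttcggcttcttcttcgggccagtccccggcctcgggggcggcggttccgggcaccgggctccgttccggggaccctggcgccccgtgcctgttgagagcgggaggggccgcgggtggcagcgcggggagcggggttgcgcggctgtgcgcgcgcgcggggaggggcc
Tlx3: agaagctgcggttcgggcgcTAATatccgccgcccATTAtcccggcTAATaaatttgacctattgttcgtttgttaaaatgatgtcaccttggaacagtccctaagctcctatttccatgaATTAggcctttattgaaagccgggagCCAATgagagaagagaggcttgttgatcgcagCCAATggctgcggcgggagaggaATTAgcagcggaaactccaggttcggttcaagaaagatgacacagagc
The Skor1 window holds 0 matches to either and has a GC content of 78.8%. The Tlx3 window holds 5 TAAT cores and 2 CCAAT boxes at a GC content of 48.8%. Over 32851 promoter windows of the same length the median GC content was 52.4%, and 54.9% held a TAAT core and 33.8% a CCAAT box. RefSeq windows were at hand for 7 of the 9 genes, with 9 windows in all, and Lbx1 and Wt1 had none in the table used. The Drgx, Prdm12, Dmrt3 and further Skor1 windows lie inside the annotated gene, and those further Skor1 windows overlap each other. Each of these held 0 TAAT cores. So did the Phox2a window, at a GC content of 70.4%, while the Prdm13 window held 3. Of 4 further motifs looked for on either strand, 3 are E-box forms that basic helix-loop-helix factors can bind. They are CAGCTG, found in 13.0% of all windows, then CAGATG, found in 14.4%, and last CATATG, found in 3.46%. The other is TAATTA, a homeodomain palindrome found in 4.84%. Of the 9 windows 0 held any of these 4 motifs. TAATTA contains the TAAT core. The absence says only that these letters are not in the windows read.

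Skor1, known earlier as Corl1, encodes a nuclear corepressor that acts together with Lbx1 in dI4 and dI5 neurons of the mouse. Its signal was 69.3 and 60.7 on the Atoh1-GFP arrays, against 425 and 736 on the dNeurog1-GFP arrays. Both Atoh1-GFP values lay at about the filter value of 63.5, and both dNeurog1-GFP values were far above it, so the populations did not overlap. The means were 65.0 ± 6.09 in Atoh1-GFP cells, against 580.3 ± 220.0 in dNeurog1-GFP cells (SD, n = 2 each). Within replicates 1 and 2 it differed by -2.17 and -3.05 log2 units, and by -2.61 together. In limma its standard error was 0.36 without the block, where it missed the threshold at adjusted p = 0.060, and 0.28 with the block, where it passed at adjusted p = 0.0077. A further Skor1 probe set was below the filter on all 4 arrays, with 15.7 and 3.55 in Atoh1-GFP cells, against 60.9 and 2.96 in dNeurog1-GFP cells, and there the populations overlapped.

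Lbx1, the homeodomain factor that defines dI4 to dI6, read 143 and 83.3 in Atoh1-GFP cells, against 460 and 567 in dNeurog1-GFP cells. The lower dNeurog1-GFP array was brighter than the higher Atoh1-GFP array by a wide margin, and all 4 arrays lay above the filter value. The means were 113 ± 41.9 in Atoh1-GFP cells, against 514 ± 75.3 in dNeurog1-GFP cells (SD, n = 2 each). The difference was -1.94 log2 units (-1.50 in replicate 1, -2.38 in replicate 2). The limma fit without a block gave a standard error of 0.33 and adjusted p = 0.094, and the fit with it 0.27 and adjusted p = 0.016. Its other probe set had the same direction within both replicate numbers (-0.72 and -1.93), from signals of 177 and 56.0 in Atoh1-GFP cells, against 314 and 302 in dNeurog1-GFP cells. The Atoh1-GFP arrays of that probe set differed from each other more than those of the brighter one, and the populations again did not overlap.

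Skor1 and Lbx1 both differed more within replicate 2, and so did the median of markers of the ventral neural tube. Of 16 ventral markers listed 15 were measured and 14 tested, with a median difference of 0.01 within replicate 1 and -1.43 within replicate 2. Their summed signal was 2358 and 1532 on the Atoh1-GFP arrays, against 1918 and 4676 on the dNeurog1-GFP arrays, so the dNeurog1-GFP replicate 2 array stood apart, and 0 of the markers had a signal of 0 on any array. Lhx4, a LIM-homeodomain factor of motor neurons and ventral interneurons, had 22.8 and 6.55 in Atoh1-GFP cells, against 209 and 399 in dNeurog1-GFP cells. Olig2, the motor neuron progenitor factor, had 3.82 and 7.44 in Atoh1-GFP cells, against 73.6 and 443 in dNeurog1-GFP cells. The motor neuron factor Mnx1 had 85.1 and 43.6 in Atoh1-GFP cells, against 164 and 910 in dNeurog1-GFP cells. Of the 14 tested, 5 had both Atoh1-GFP signals below both dNeurog1-GFP signals, against 18.8% of all genes, and 3 had both above, against 15.9%. Evx1, among the latter, had 524 and 411 in Atoh1-GFP cells, against 32.6 and 227 in dNeurog1-GFP cells. Its difference was 3.10 within replicate 1 and 0.78 within replicate 2. Without the dNeurog1-GFP replicate 2 array the difference was -2.24 for Skor1 and -1.80 for Lbx1. With one of the other arrays left out it ran from -2.99 to -2.55 for Skor1 and from -2.24 to -1.64 for Lbx1. Such fits leave a lone array in 1 population, so only the differences are given.

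**Figure D2:**
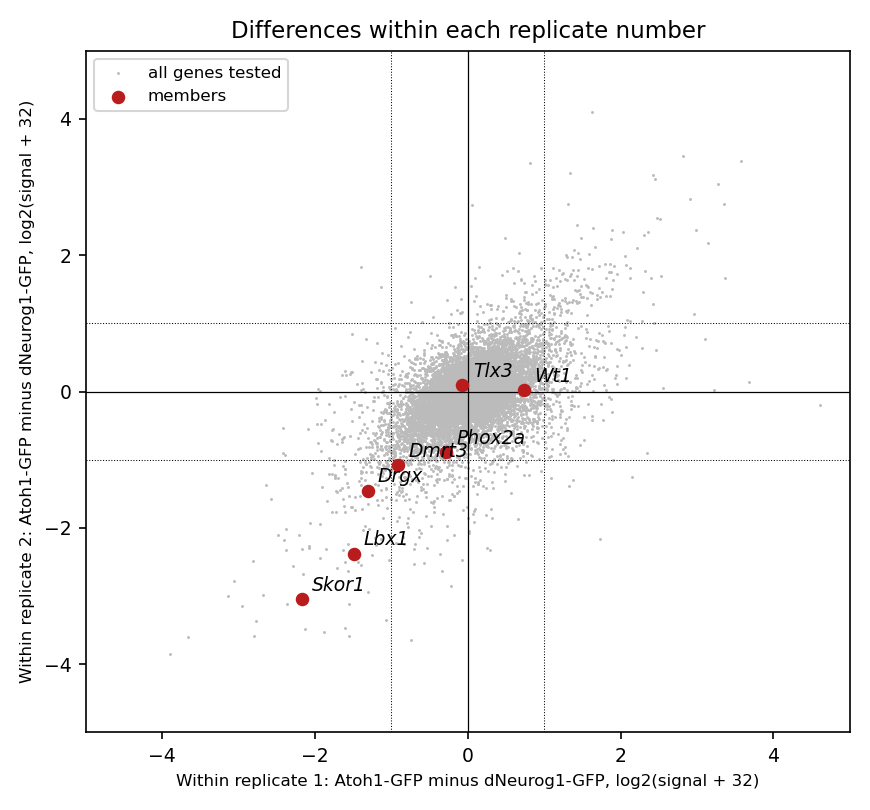
Difference of each gene within replicate 1 (horizontal) and within replicate 2 (vertical), both as log2(signal + 32) in Atoh1-GFP minus dNeurog1-GFP cells, for 12740 genes in grey and the 7 measured members in red, with dotted lines at a 2-fold difference. Skor1, Lbx1 and Drgx lie in the lower left corner beyond 2-fold on both axes, and Dmrt3 lies at its edge.

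Tlx3 and Drgx belong to the excitatory program of dI3 and dI5 but had different patterns. Tlx3, a homeodomain selector of glutamatergic neurons, read 438 and 382 in Atoh1-GFP cells, against 462 and 355 in dNeurog1-GFP cells. The arrays of the 2 populations interleaved, and replicate 1 was the higher one in each. The means were 410.1 ± 40.1 in Atoh1-GFP cells, against 409 ± 75.4 in dNeurog1-GFP cells (SD, n = 2 each). It differed by 0.01 log2 units, -0.07 in replicate 1 and 0.10 in replicate 2 (limma adjusted p = 1.00, and 0.98 in the fit with the block). The unadjusted 95% interval of the difference ran from -0.60 to 0.63 without the block and from -0.42 to 0.44 with it, which leaves out a 2-fold difference in either direction on this scale. All 4 arrays were well above the filter value.

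Drgx, a paired-type homeodomain factor of dI5 neurons and of pain-sensing ganglion neurons, read 121 and 52.2 in Atoh1-GFP cells, against 349 and 199 in dNeurog1-GFP cells. Replicate 2 was the dimmer array in each population, yet the populations did not overlap. The means were 86.7 ± 48.8 in Atoh1-GFP cells, against 274 ± 106 in dNeurog1-GFP cells (SD, n = 2 each). Its log2 difference was nearly the same within both replicate numbers, -1.31 and -1.46, and -1.38 together. The standard error was 0.46 without the block (limma adjusted p = 0.40) and 0.23 with it (adjusted p = 0.027). With the block and no filter on dim signals Drgx missed the threshold (limma adjusted p = 0.071). Without a block it missed the threshold on every scaling, pseudocount and filter tried. With 1 array left out its difference ran from -1.82 to -0.95.

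Both genes are also known from sensory ganglia next to the neural tube. Of 14 sensory ganglion markers listed 11 were measured, and their summed signal was 2283 and 2635 in Atoh1-GFP cells, against 1713 and 2566 in dNeurog1-GFP cells. Of the 7 markers tested, 3 had both Atoh1-GFP signals below both dNeurog1-GFP signals, against 18.8% of all genes. The 2 with both above stand beside 15.9% of all genes. Limma with the block had 1 lower and 2 higher in Atoh1-GFP cells, where 6.51% of all genes passed in either direction. Without it 0 passed and 5 had an unadjusted p under 0.05, against 8.59% of all genes. Ret, a receptor of neurotrophic factors, read 74.7 and 84.9 in Atoh1-GFP cells, against 249 and 647 in dNeurog1-GFP cells (limma adjusted p = 0.025 with the block). Prph, a neuronal intermediate filament gene, had 72.9 and 40.9 in Atoh1-GFP cells, against 169 and 310 in dNeurog1-GFP cells, and missed the threshold with the block (limma adjusted p = 0.058). Both thus had the direction of Drgx. P2rx3, an ATP-gated channel gene, had the other direction, with 616 and 948 in Atoh1-GFP cells, against 118 and 276 in dNeurog1-GFP cells (limma adjusted p = 0.0077 with the block). None of the 11 was at 0 on any array, but Avil, Runx3, Pou4f3 and Scn10a were below the filter value on all 4. The part of ganglion cells in the Drgx signal was not tested.

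Phox2a, a homeodomain factor best known from noradrenergic neurons and also present in spinal projection neurons of the mouse, was dim. Its signal was 109 and 28.6 in Atoh1-GFP cells, against 140.0 and 80.7 in dNeurog1-GFP cells. The replicate 1 array of Atoh1-GFP cells was brighter than the replicate 2 array of dNeurog1-GFP cells, so the populations overlapped. It differed by -0.59 log2 units, -0.28 in replicate 1 and -0.89 in replicate 2 (limma adjusted p = 1.00, and 0.29 in the fit with the block). Leaving out the Atoh1-GFP replicate 2 array brought the difference to 0.02.

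Dmrt3 and Wt1 mark subsets of dI6, the most ventral of the dorsal classes. Dmrt3, a zinc finger factor of commissural neurons that set gait in horse and mouse, read 53.7 and 40.6 in Atoh1-GFP cells, against 130 and 122 in dNeurog1-GFP cells. Both Atoh1-GFP arrays lay below the filter value, both dNeurog1-GFP arrays above it, and the arrays within each population were close together. The means were 47.2 ± 9.24 in Atoh1-GFP cells, against 126 ± 5.53 in dNeurog1-GFP cells (SD, n = 2 each). It differed by -0.92 log2 units in replicate 1 and by -1.08 in replicate 2. Neither limma fit called it (adjusted p = 0.69, and 0.086 with the replicate block). The other 3 Dmrt3 probe sets were below the filter on all 4 arrays, and 2 of them had both Atoh1-GFP signals below both dNeurog1-GFP signals.

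Wt1, a zinc finger factor of some dI6 neurons that is also strong in the mesothelium and the developing kidney, ran the other way. It read 133 and 77.8 in Atoh1-GFP cells, against 66.8 and 76.3 in dNeurog1-GFP cells. The replicate 2 values were nearly equal, so that nearly the whole difference lay on the replicate 1 arrays: 0.74 within replicate 1, 0.02 within replicate 2 and 0.38 together. Neither limma fit called it (adjusted p = 1.00, and 0.51 with the replicate block).

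Of 9 mesothelium and urogenital markers all were measured, with a summed signal of 4624 and 6984 in Atoh1-GFP cells, against 6786 and 6586 in dNeurog1-GFP cells, and 0 of the 4 tested passed in either limma fit or at an unadjusted p under 0.05 without the block. Most of that sum came from Pdpn, a gene with wide expression, at 3546 and 6470 in Atoh1-GFP cells against 6182 and 5923 in dNeurog1-GFP cells. The median difference of the 4 tested was 0.54 within replicate 1 and -0.03 within replicate 2. Tcf21, a mesothelial and renal factor, had 175 and 98.5 in Atoh1-GFP cells, against 75.8 and 117 in dNeurog1-GFP cells. The median of the mesenchyme and muscle markers also went with the replicate number, at 0.92 within replicate 1 and -0.34 within replicate 2 over 14 genes. Within replicate 2, 10 of the 14 were below 0. The muscle genes Myl7 (1.33 and 3.20), Myh6 (0.82 and 3.36) and Tnnt2 (1.68 and 0.76) kept a positive sign, and their populations did not overlap. Limma with the block called 1 of the 14, Myl7 (adjusted p = 0.039), and without it 0 passed. The summed signal of the 14 markers was 7934 and 7829 in Atoh1-GFP cells, against 3448 and 9378 in dNeurog1-GFP cells. The 9 measured markers of blood and endothelium summed to 31397 and 31944 in Atoh1-GFP cells, against 8135 and 23145 in dNeurog1-GFP cells. No marker of these lists was at 0, and their part in the Wt1 signal was not tested.

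**Figure D3:**
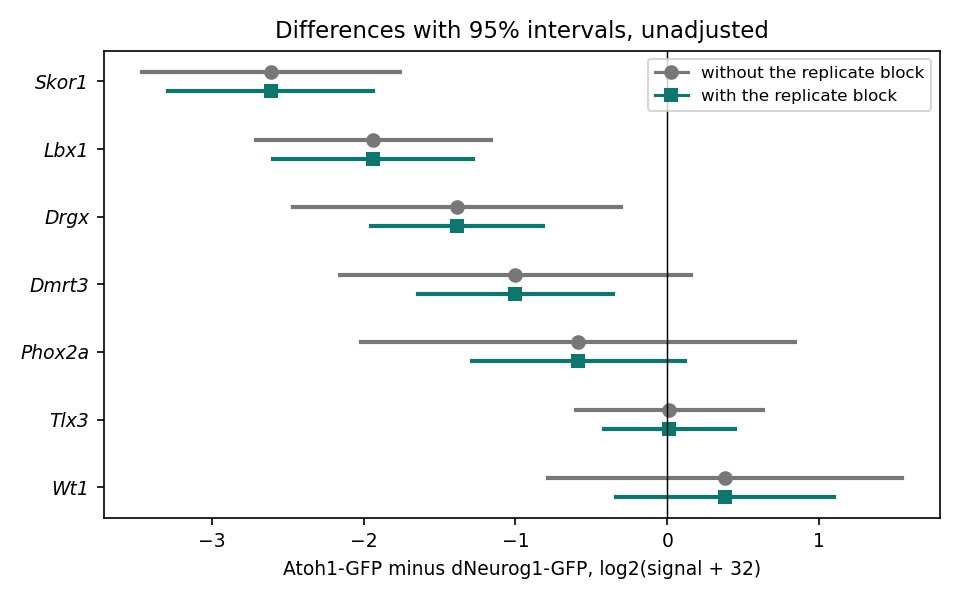
Difference of each measured member in log2(signal + 32), Atoh1-GFP minus dNeurog1-GFP, with its unadjusted 95% interval from limma without (grey circles) and with (green squares) the replicate number as a block. The intervals of Skor1, Lbx1 and Drgx lie below 0 in both fits, that of Dmrt3 only with the block, and those of Phox2a, Tlx3 and Wt1 include 0 in both.

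The populations also differed in some of the general neural markers and some of the neural crest markers. Of 10 neural tissue markers all were tested, and limma with the block had 3 higher and 3 lower in Atoh1-GFP cells, while 0 passed without it and 7 had an unadjusted p under 0.05. The progenitor factors Sox1 (-1.75), Pax6 (-1.61) and Sox3 (-1.33) were the lower ones, and the neuronal genes Tubb3 (1.01), Dcx (0.99) and Elavl3 (0.77) the higher ones, in log2 units. The other 4, not called, were the progenitor genes Sox2 (-0.11) and Nes (0.40) and the neuronal genes Elavl4 (0.56) and Stmn2 (0.51). Of 7 neural crest and glia markers 5 were measured and tested, with a summed signal of 1510 and 1327 in Atoh1-GFP cells, against 3095 and 4330 in dNeurog1-GFP cells. Tfap2a, an AP-2 factor of neural crest that dorsal spinal neurons express too, read 298 and 217 in Atoh1-GFP cells, against 1667 and 2143 in dNeurog1-GFP cells, and was lower in both limma fits (adjusted p = 0.021 without and 0.0037 with the block). Sox9 was lower with the block (-0.78). None of these markers was at 0, and their part in the differences of Skor1, Lbx1 and Drgx was not tested.

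Groups that did not overlap were common on these arrays. Both Atoh1-GFP values lay below both dNeurog1-GFP values in 4 of the 7 members and in 18.8% of all genes, and above them in 1 of the 7, Wt1, and in 15.9% of all genes. The order of the replicate arrays was also counted. In Atoh1-GFP cells 7 of the 7 members were brighter on the replicate 1 array, against 48.7% of all genes tested, and in dNeurog1-GFP cells 4 of the 7 were, against 47.4% of all genes. The shares over all genes include bright genes, whereas dim probe sets remained brighter on the replicate 1 arrays. A comparison with genes of like signal was not made.

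Most other tested genes of the same classes also had a lower signal in Atoh1-GFP cells. Of 16 further genes of dI3 to dI6 listed, 13 were measured and 11 tested. Limma with the block had 6 of these 11 lower and 0 higher in Atoh1-GFP cells, where 3.73% of all genes passed as lower. The other 5 were not called. Without the block 0 passed and 7 had an unadjusted p under 0.05, against 8.59% of all genes. The median difference of the 11 was -1.94 (-1.56 in replicate 1 and -2.11 in replicate 2). The largest were Gsx1, a homeodomain factor of the dI3 to dI5 progenitors, Ptf1a, the basic helix-loop-helix factor of dI4, and Gad1, which makes GABA. Gsx1 read 9.68 and 9.39 in Atoh1-GFP cells, against 315 and 252 in dNeurog1-GFP cells. Ptf1a had 152 and 50.6 in Atoh1-GFP cells, against 644 and 919 in dNeurog1-GFP cells, and Gad1 had 55.6 and 19.0 in Atoh1-GFP cells, against 234 and 536 in dNeurog1-GFP cells. Both arrays of each population stood apart for all 3 genes, and Ptf1a and Gad1 differed more within replicate 2, as Lbx1 and Skor1 did. Pou4f1 ran the other way within both replicate numbers (0.28 and 0.17) and was not called. It had 1557 and 2386 in Atoh1-GFP cells, against 1281 and 2119 in dNeurog1-GFP cells.

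**Figure D4:**
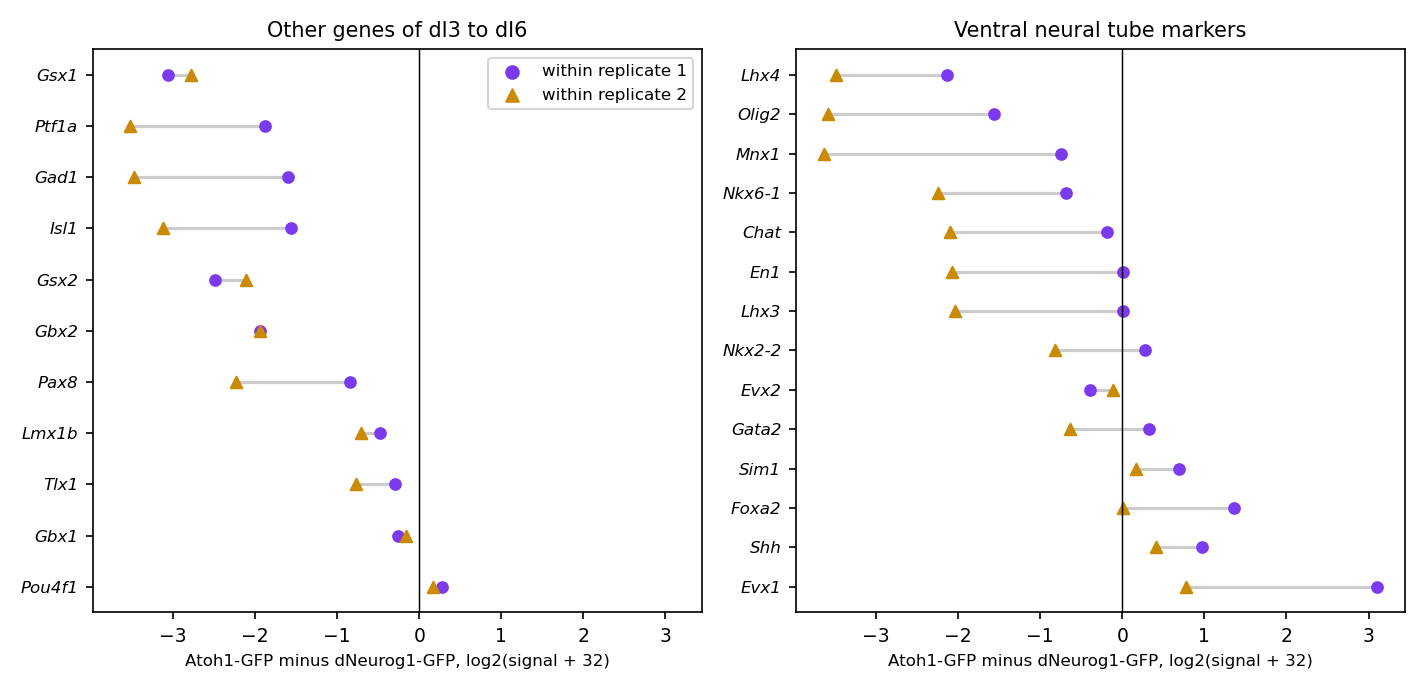
Difference of each tested gene in log2(signal + 32), Atoh1-GFP minus dNeurog1-GFP, within replicate 1 (violet circles) and within replicate 2 (ochre triangles), for the other genes of dI3 to dI6 (left) and the ventral neural tube markers (right). Of the dI3 to dI6 genes 10 of 11 were below 0 within each replicate number. Of the ventral markers 6 of 14 were below 0 within replicate 1 and 10 of 14 within replicate 2.

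Relatives of the members from the same gene families were centred near 0. Of 30 relatives listed 27 were measured and 21 tested, and their median difference was -0.14. Limma with the block had 2 lower and 0 higher in Atoh1-GFP cells, and without it 0 passed and 3 had an unadjusted p under 0.05. The 2 were the PR domain genes Prdm8 and Prdm16. Prdm8, a repressor found in several spinal classes, read 371 and 246 in Atoh1-GFP cells, against 933 and 1439 in dNeurog1-GFP cells, and a difference of -1.83 (limma adjusted p = 0.096 without and 0.021 with the block). Prdm16 had 237 and 302 in Atoh1-GFP cells, against 519 and 634 in dNeurog1-GFP cells, and a difference of -1.02. Prdm6, next in size, ran the other way, with 294 and 187 in Atoh1-GFP cells, against 91.5 and 115 in dNeurog1-GFP cells. Its difference of 0.99 was not called (limma adjusted p = 0.50 without and 0.11 with the block). The closest relatives of Lbx1 and Tlx3 did not pass. Lbx2 had 145 and 42.5 in Atoh1-GFP cells, against 152 and 60.5 in dNeurog1-GFP cells, where its paralogue Lbx1 differed several-fold. Tlx1, the Tlx3 paralogue that shares its role in dorsal horn neurons, had 69.3 and 38.0 in Atoh1-GFP cells, against 91.9 and 87.6 in dNeurog1-GFP cells. Its values did not overlap, but the difference of -0.53 was not called (limma adjusted p = 1.00 without and 0.33 with the block).

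The genes whose 4 values ran closest to those of Lbx1, by the mean distance of centred log2 values over the 4 arrays among 12740 genes, were Lamp5, Prdm8, Ttc39b, Lratd1 and Rnf144b, at distances of 0.09 to 0.13 log2 units. Lamp5, a lysosome-associated membrane protein found in inhibitory neurons of the forebrain, read 356 and 192 in Atoh1-GFP cells, against 1116 and 1360 in dNeurog1-GFP cells. Rnf144b, a ubiquitin ligase gene, had 121 and 89.3 in Atoh1-GFP cells, against 556 and 624 in dNeurog1-GFP cells. With 2 arrays a population such a likeness mostly restates the difference between the populations.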

How the data were processed

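The deposited values are MAS5 signal intensities of 4 arrays made by the authors, 1 per probe set on a linear scale, per the submitters' processing notes, which name MAS5. Version and settings were not given in the sources used here, and the file holds no detection calls. Both replicate 1 arrays had a 2% trimmed mean of 250.001 and both replicate 2 arrays one of 500.003, so each array was rescaled here to 500.

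Of 45101 probe sets, 64 controls were left out, and 27022 with a mean over 4 arrays at or above the 40th percentile (63.5) were kept. Of 45037, 34945 had 1 symbol, 932 several and 9160 are unnamed here. Each gene took its brightest kept probe set. Log2(signal + 32) was fitted with limma 3.58.1 (lmFit, eBayes with trend) in R 4.3.3, with Benjamini-Hochberg adjustment over 12740 genes. The fits have 2 residual degrees of freedom without the block and 1 with it, against priors of 4.92 and 5.11. The labels give biological replicates but do not say that equal numbers share a day or litter. After rescaling, deviations from the population means correlated at r = 0.66 across genes between arrays of one number. The number of arrays limits the precision. Both fits were run on simulated data with known changes and with variances drawn from each fit's own prior. There the fit with the block made, on average, a larger share of false calls than its threshold allows. Such data follow the model that the fit assumes, so they check the code and not that model. Earlier versions drew variances from raw estimates, recovered no change with the block in the simulations looked at, and were replaced.

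Members and gene lists were chosen with earlier results of these data known. Named are all members, Atoh1 and Neurog1, up to 3 genes of a list with the largest differences, and the 5 genes closest to Lbx1. Lbx2, Tlx1, Evx1, Tubb3, Dcx, Elavl3, Sox2, Nes, Elavl4 and Stmn2 were added after their values were seen. So were Sox10, Erbb3, Pou4f1, Avil, Runx3, Pou4f3 and Scn10a.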

Additional observations from a re-analysis of the deposited data

How the results depend on the processing

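The number of members called turned on the replicate block. It was 0 without the block on every scaling, pseudocount and filter tried, and also with all probe sets tested. With the replicate block it was 3 on one trimmed mean, where 6.51% of all genes passed, and 3 on the signals as deposited (9.17% of all genes). It was 4 after quantile normalization (14.6%), 3 at a pseudocount of 16 (7.05%) or 64 (6.75%), and 2 with no filter (1.98%). The block with one 75th percentile or with all probe sets, both chosen after seeing the data, gave 3 each. There 9.36% of all genes and 7.98% of all kept probe sets passed. Leaving out 1 array at a time left a lone array in 1 population, assumed to vary like the others. No block could be fitted then, and only the differences are read from those fits. Lbx1 and Skor1 passed in all 8 block settings and Drgx in 7. Over all 19 alternatives, with and without the block, their differences ran from -2.24 to -1.64 (Lbx1), -2.99 to -2.24 (Skor1) and -1.82 to -0.95 (Drgx). Dmrt3 passed in 1, after quantile normalization. Its difference reached 2-fold within both replicate numbers only at a pseudocount of 16, which made 4 such members in place of 3.

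Tlx3 changed sign, staying near 0: -0.032 after quantile normalization with or without the block, -0.0086 on one 75th percentile with or without it, and -0.16 to 0.19 with 1 array left out. Phox2a ran from -1.20 to 0.023 with 1 array left out. The cause was not tested.

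Over all genes 28 passed, 16 higher and 12 lower in Atoh1-GFP cells. As deposited 13 passed (1 and 12), on one 75th percentile 18 (7 and 11), with no filter 14, and with all probe sets 1. With 1 array left out 153 to 380 passed. With the replicate block the count was 829, and 1169 as deposited, 1861 after quantile normalization, 898 and 860 at pseudocounts of 16 and 64, 361 with no filter, 1193 on one 75th percentile and 2156 with all probe sets. Signals near the filter value, such as those of Skor1 and Dmrt3 in Atoh1-GFP cells, have no detection call, so their fold changes depend on the pseudocount.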
